A study of Mus musculus with 49 samples.

Results

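The response of wild-type (WT) mouse macrophages to 4 h of lipopolysaccharide (LPS) was read from 6 of the 49 libraries of a study of Elf4, which encodes an ETS-family transcription factor. The cells were bone marrow-derived macrophages (BMDM) of C57BL/6 mice, grown for 7 days in M-CSF, the growth factor that turns marrow precursors into macrophages. Of these, 3 libraries came from WT cells given LPS at 100 ng/ml for 4 h, and 3 from untreated WT cells collected at 0 h; neither group carried an engineered allele. The 6 libraries were chosen by the labels for genotype and time, and no measured value entered the choice. The header of the deposited table gives every library its own mouse number. Same-numbered 4 h and 0 h libraries nevertheless deviated together over the genes (correlations of 0.17 to 0.25), so whether they share a source is not known. The main fit treats them as unpaired. No untreated 4 h cells were analysed here, so LPS and hours in culture cannot be told apart. Polyadenylated RNA was sequenced, and the values were CPM, the reads of a gene scaled to a fixed library depth and not to the length of the gene.

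LPS is a glycolipid of the outer membrane of Gram-negative bacteria. On macrophages it is handed by CD14 to TLR4 with its partner MD-2, and the receptor signals by a pair of routes. From the cell surface the adaptors TIRAP and MyD88 recruit IRAK kinases and TRAF6, which release NF-kB from its inhibitors and switch on MAP kinases and AP-1. From endosomes the adaptors TRAM and TRIF activate TBK1 and IRF3, which start interferon beta, and the interferon then acts back on the cells through JAK kinases and STAT factors. Many genes switched on in this way encode brakes on the same signals.

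Changes were measured as differences of log2(CPM + 1), 4 h minus 0 h, and are given with their standard error (SE) where both are stated. Over the 12058 genes tested, the median difference was -0.81 log2 on the deposited CPM. Scaling the same libraries by the median ratio of their genes put that median at -0.03, and added 0.90 log2 to a typical gene (0.88 to 0.91 from the 5th to the 95th percentile of 4728 genes with at least 20 CPM at both times). A gene is said below to have risen or fallen only where limma, a linear model fitted across all genes, called it in the same direction under both scalings, each at a Benjamini-Hochberg adjusted p under 0.05. By that rule 1876 genes rose, 15.6% of those tested, and 4504 fell, 37.4%. With a difference of at least 1 log2 under both scalings, 1132 rose (9.39%) and 2017 fell (16.7%). Another 1421 genes were called lower on the deposited CPM and higher after median-ratio scaling. On the deposited CPM, groups without overlap were common: 16.4% of genes tested lay wholly higher at 4 h and 72.8% wholly lower. After median-ratio scaling these shares were 38.2% and 40.2%. A lack of overlap, where given below, therefore describes the libraries and does not set a gene apart. All log2 differences below are on the deposited CPM unless stated.

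The genes that rose came to hold most of the CPM listed in each 4 h library. They took 51.7, 51.8 and 51.3% of the CPM listed at 4 h, against 14.3, 13.6 and 14% at 0 h. The genes that fell took 7, 7 and 7.2% at 4 h, against 25.4, 26.2 and 26.4% at 0 h. The genes were picked by the same comparison, so these shares describe its size and test nothing. The reads behind a library, taken from the spacing of its smallest values, were 11500000 to 13400000 reads at 4 h and 12400000 to 15000000 reads at 0 h. The antiviral radical-SAM enzyme gene Rsad2 gained the most CPM of any gene, with 12239, 12304 and 11330.0 CPM at 4 h, against 67.9, 40.2 and 56.7 CPM at 0 h. Beta-actin, Actb, is in no list and was chosen after its values were seen, for its large share; it had 9201, 9694 and 9837 CPM at 4 h, against 4307, 4293 and 4635 CPM at 0 h.

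**Figure D1:**
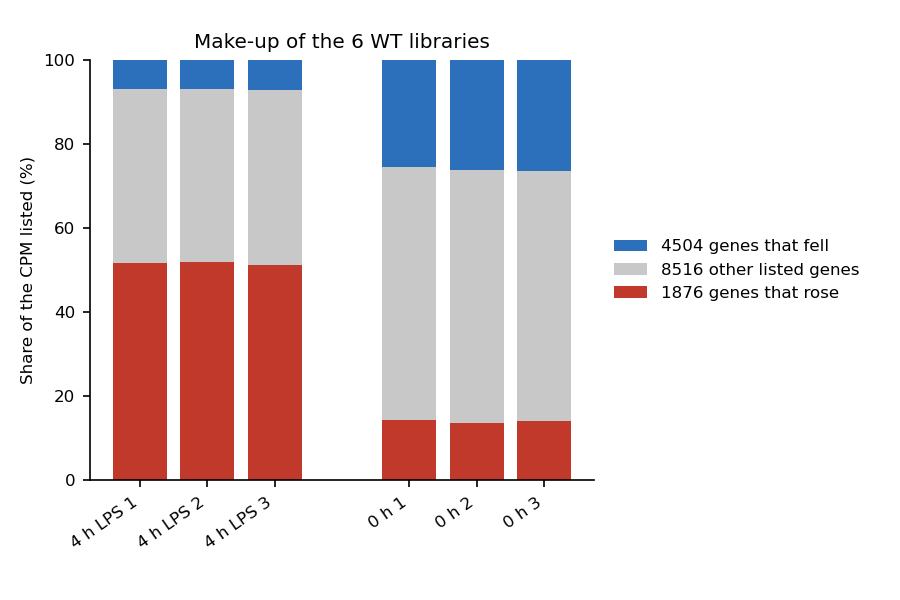
Share of the CPM listed (y axis, %) in each of the 6 WT libraries (x axis, 4 h LPS left of 0 h), split into the genes that rose, the genes that fell and all other listed genes. The genes that rose fill 51.3 to 51.8% of the CPM listed in the 4 h libraries and 13.6 to 14.3% of that in the 0 h libraries.

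Among genes with at least 5 CPM at either time and no overlap between the groups, the largest rise after median-ratio scaling was that of Acod1, which makes itaconate. It had 6624, 6734 and 6349 CPM at 4 h, against 4.5, 6.88 and 3.74 CPM at 0 h. Next came Nos2, Cxcl10, Ptgs2 (inducible cyclooxygenase) and Il12b, the p40 chain of IL-12, and the first 15 also held Il6, the endothelial lipase gene Lipg, Cd69, Il1b and Il1a. Lipg had 1073, 1039 and 1162 CPM at 4 h, against 0.723, 0.459 and 0.867 CPM at 0 h, and Il12b had 959, 1091 and 928 CPM at 4 h, against 0.321, 0.382 and 0.601 CPM at 0 h. The largest falls were those of Sesn1, Cebpa, Cxcr4 and E2f2. Outside the lists, the first 15 falls held the lysoplasmalogenase gene Tmem86a, with 0.866, 0.836 and 0.817 CPM at 4 h, against 69.9, 71 and 75.9 CPM at 0 h, and the cannabinoid receptor gene Cnr2, with 0.0867, 0.152 and 0.0744 CPM at 4 h, against 36.9, 35.2 and 35.9 CPM at 0 h. Lhfpl2, Arhgap19, Lonrf3, Rab3il1, a Rab guanine exchange factor gene, and Tmem273 were also among them. Since 1 is added before the log, a difference understates the change of a gene with a low level at either time.

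The cells carried the macrophage markers at both times. Lyz2 (lysozyme) stood at 7501, 7559 and 6977 CPM at 4 h, against 13332, 13733 and 11971 CPM at 0 h, Adgre1 (F4/80) at 1781, 1693 and 1579 CPM at 4 h, against 2034, 1839 and 1828 CPM at 0 h, and Csf1r, the receptor for M-CSF, at 1462, 1499 and 1407 CPM at 4 h, against 2929, 2949.8 and 3055 CPM at 0 h. Of 21 macrophage identity genes tested, Cd14 and the Fc receptor gene Fcgr1 rose, the inhibitory receptor gene Sirpa fell, and 18 were not called in 1 direction under both scalings. In bulk RNA, fewer cells of a type and less RNA per cell cannot be told apart.

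Markers of other cells were counted over whole lists, and their part in any result was not tested. A marker low at 0 h could enter the fit by its level after LPS. Xcr1, for example, averaged 0.155 CPM at 0 h and 10.3 CPM at 4 h. Markers that stayed low were left out of the fit, so the counts risen in these lists test nothing. The sums here and below take every listed marker with deposited values, tested or not. Of 12 stromal genes 10 were tested, with 0 called in 1 direction. The 12 summed to 480, 585 and 842 CPM in replicates 1, 2 and 3 at 4 h, against 592, 759 and 1105 CPM at 0 h. The same-numbered libraries thus ranked alike at both times. Neutrophil markers (6 of 12 tested) summed to 66.5 to 75 CPM at 4 h and 24.5 to 28.8 CPM at 0 h. Of these Csf3r (1.62), the G-CSF receptor, rose, while the neutrophil protease gene Elane averaged under 1 CPM at both times. T, NK and B cell markers (3 of 16 tested) summed to 18.4 to 23.7 CPM at 4 h and 11 to 15.5 CPM at 0 h; the kinase gene Lck (2.52) and the T cell receptor chain gene Cd247 (2.64) rose, and the B cell genes Cd79a and Ms4a1 averaged under 1 CPM at both times. Mast cell and basophil markers (2 of 10 tested) summed to 118 to 147 CPM at 4 h and 0.765 to 1.47 CPM at 0 h, nearly all of it Hdc, while Cpa3 and Mcpt8, their protease genes, averaged under 1 CPM at both times. Dendritic cell markers (5 of 12 tested) summed to 19 to 25.7 CPM at 4 h and 1.99 to 3.13 CPM at 0 h, with Xcr1 (3.25), Ccr7 (1.81), Kmo (1.99) and Ccr9 (1.15) risen, Batf3 (-0.76) fallen and Flt3, Zbtb46 and Clec9a under 1 CPM on average at both times. Of 10 endothelial and epithelial markers 4 were tested, with sums of 132 to 156 CPM at 4 h and 53.6 to 68.5 CPM at 0 h, and Kdr (2.49) and Cdh5 (1.17) rose. Erythroid and platelet markers (3 of 11 tested) summed to 2.13 to 4.62 CPM at 4 h and 1.88 to 3.71 CPM at 0 h, with 0 called.

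**Figure D2:**
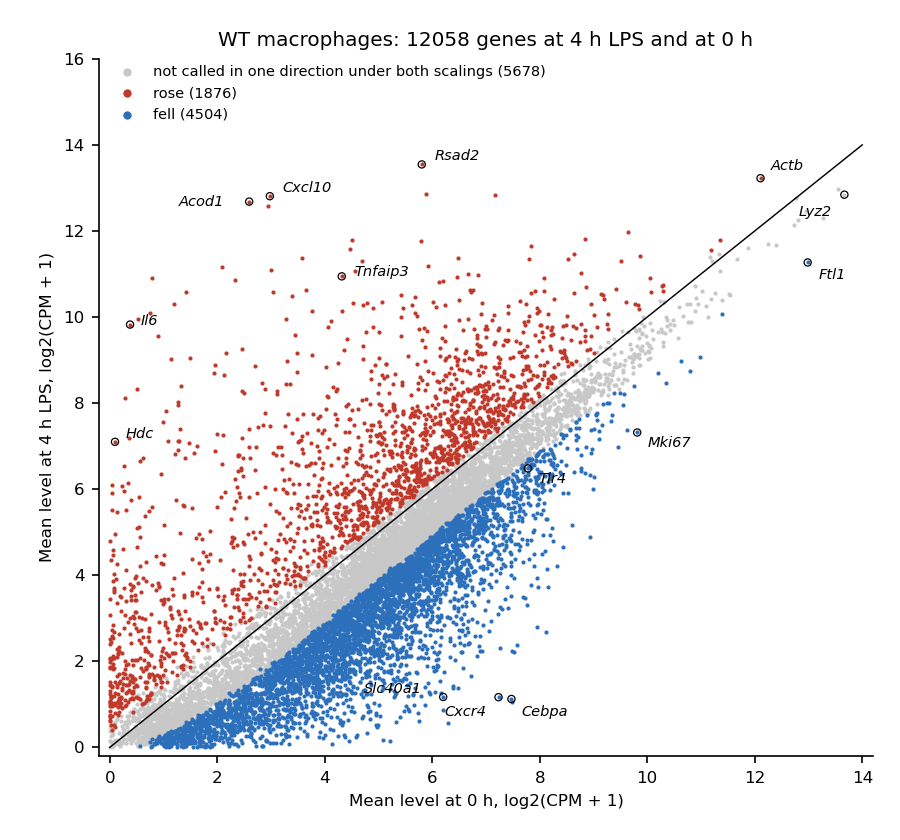
Mean level of each of the 12058 genes tested at 4 h LPS (y axis) against 0 h (x axis), in log2(CPM + 1), with the line of equality; red points rose and blue points fell under both scalings, and ringed points are named. Rsad2 and Cxcl10 lie near the top of the 4 h axis, and Cebpa and Cxcr4 lie near its foot.

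The receptors and adaptors that sense LPS did not move as a block: the transcript of TLR4 fell while those of CD14 and TLR2 rose. Of 29 genes of the Toll-like receptor (TLR) pathway tested, 15 rose, 7 fell and 7 did neither, around a median of 0.36 log2. Tlr4 had 88.8, 90.5 and 85.9 CPM at 4 h, against 222, 214 and 219.9 CPM at 0 h, a difference of -1.30 ± 0.07 log2 (limma, adjusted p = 1.88e-11). Tlr2, the receptor for bacterial lipoproteins, had 1014, 958 and 945 CPM at 4 h, against 79.1, 95.4 and 92.1 CPM at 0 h (3.44 ± 0.10, adjusted p = 4.06e-15). The 4 h libraries of Tlr4 all lay below the 0 h libraries and those of Tlr2 all above. Tlr3 (3.90), which senses double-stranded RNA, Tlr1 (1.88) and Tlr6 (1.64), the partners of TLR2, and Cd14 (1.84) also rose. Tlr13, which senses bacterial ribosomal RNA in mice, fell to 70.1, 57.7 and 60.3 CPM at 4 h, against 560.1, 503 and 469 CPM at 0 h.

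Downstream of the receptors the adaptor gene Myd88 rose (406 ± 8.52 CPM at 4 h and 83.7 ± 2.82 CPM at 0 h, SD, n = 3 each), and so did Irak2 (2.67), the kinase of sustained signalling, and Irak3 (1.25), an inactive kinase that restrains the pathway. The kinases that act first moved the other way, Irak4 (-1.68) and Irak1 (-1.28), as did Cnpy3 (-1.79), a chaperone that TLRs need to reach the surface. Irak4 had 15, 16.6 and 18 CPM at 4 h, against 57.5, 49.9 and 57.3 CPM at 0 h. In the endosomal branch Tbk1 (0.76) and Ticam1 (0.36), which encodes TRIF, rose, and Irf3 fell, with 15.4, 13.1 and 14 CPM at 4 h, against 36.5, 33.4 and 36.4 CPM at 0 h. The groups did not overlap for any gene named in this pathway, as for most genes tested on the deposited CPM.

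NF-kB genes rose with their inhibitors, and none fell. Of 22 subunits and inhibitors tested, 19 rose and 0 fell, around a median of 2.73 log2. Nfkbia, which encodes the inhibitor IkB-alpha, had 1268, 1335 and 1285 CPM at 4 h, against 56.4, 73.7 and 60.8 CPM at 0 h. Tnfaip3, the ubiquitin-editing enzyme A20 that shuts the pathway down, had 1955, 1966 and 1989.6 CPM at 4 h, against 18.5, 20.1 and 18.2 CPM at 0 h, a difference of 6.63 ± 0.12 log2 (adjusted p = 8.46e-18). In each the 3 libraries of a group lay close together and far from those of the other group. Nfkbiz (5.70), an inhibitor-like cofactor for late genes, Nfkbie (3.81), Nfkbib (2.95) and Bcl3 (3.61) rose as well. Of the subunits, the precursors Nfkb2 (3.68) and Nfkb1 (2.51) rose by more than Rela (0.83). The ubiquitin regulator Cyld, the kinase scaffold Ikbkg and the inhibitor of the alternative branch Traf3 were not called in 1 direction, with 61.8 against 73.6 CPM, 32.4 against 48.6 CPM and 21.3 against 41.2 CPM at 4 h against 0 h.

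Promoter sequences were read for the genes that carried these changes, from the RefSeq table for GRCm38.p6 (the same assembly as mm10), which gives 250 bases before and 50 after each transcript start. The kappaB-like motif searched was GGG, any 3 bases and TTCC, on either strand. Of the 19 NF-kB genes that rose, 15 matched the table with 20 promoters, and 12 of these (60%) held it, against 6.42% of the 12248 promoters of genes tested and 5.56% of all 32851 in the table. It was in 46.2% of 13 promoters of chemokine genes that rose and in 25% of 24 promoters of cytokine genes that rose. Of the 283 promoters of all genes that rose by at least 3 log2, 14.1% held it. Stretches around the match are shown for an inhibitor (Nfkbia, chr12:55492627-55492716, reverse strand), a neutrophil chemokine (Cxcl2, chr5:90903762-90903870, forward strand) and a cytokine (Il6, chr5:30013030-30013119, forward strand), written 5′ to 3′ on the gene's strand with the match in capitals (in Nfkbia it is read on the other strand). The matches begin 29 bases before the start in Nfkbia and 44 in Il6, and in Cxcl2 they overlap at 97 and 96 and stand again at 78. The Cxcl2 match at 96 is also read on the other strand. A match describes these letters and is not evidence that a factor was bound.
Nfkbia: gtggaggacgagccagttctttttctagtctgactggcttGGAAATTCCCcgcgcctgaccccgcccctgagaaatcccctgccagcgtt
Cxcl2: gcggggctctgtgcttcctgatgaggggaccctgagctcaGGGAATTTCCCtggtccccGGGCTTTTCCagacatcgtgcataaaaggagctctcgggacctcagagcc
Il6: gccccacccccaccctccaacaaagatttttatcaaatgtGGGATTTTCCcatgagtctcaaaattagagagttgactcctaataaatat

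MAP kinase brakes went both ways. Of 18 feedback genes tested, 9 rose, 4 fell and 5 did neither. The nuclear phosphatases Dusp1 and Dusp2, which dephosphorylate p38, JNK and ERK, rose: Dusp1 had 996, 1014 and 1079 CPM at 4 h, against 37.4, 42 and 45.5 CPM at 0 h, and Dusp2 had 417, 411 and 422 CPM at 4 h, against 2.89, 2.22 and 3.47 CPM at 0 h. Dusp6, the cytosolic phosphatase for ERK, had 4.16, 3.49 and 4.98 CPM at 4 h, against 109, 96.4 and 80.7 CPM at 0 h, a difference of -4.21 ± 0.18 log2 (adjusted p = 2.65e-13). The ERK inhibitors Spred2 (-2.78) and Spry2 (-1.86) fell too, while Spred1 (1.46) rose. Of 27 AP-1, EGR and other immediate early genes, 13 rose and 5 fell. Junb rose, with 794, 828 and 858 CPM at 4 h, against 82.5, 102 and 98.7 CPM at 0 h, and Jun fell, with 75.8, 70 and 74.9 CPM at 4 h, against 168, 150.4 and 167 CPM at 0 h. Batf2 (5.61), Batf (3.39), Atf3 (1.69) and the orphan receptor gene Nr4a3 (5.20) rose, whereas Fos stood at 35.9 against 74.7 CPM and was not called in 1 direction.

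Most genes for secreted ligands rose. Of 40 cytokine and growth factor genes tested, 31 rose, 1 fell and 8 did neither, around a median of 2.62 log2; 43 were listed. Il6 had 871, 946 and 900.1 CPM at 4 h, against 0.402, 0.229 and 0.267 CPM at 0 h, so that it was under 1 CPM in every untreated library. Il10, a cytokine that restrains macrophages, had 504, 470.5 and 441 CPM at 4 h, against 2.57, 3.36 and 2.67 CPM at 0 h. Ifnb1, interferon beta, had 14.6, 13.1 and 12.8 CPM at 4 h, against 0.0001, 0.0765 and 0.0668 CPM at 0 h. All 4 h libraries of these genes lay above all 0 h libraries. A ligand gene low at 0 h, such as Ifnb1, could enter the fit by its level after LPS and could hardly be called fallen. The count and median of this list therefore describe it and test nothing.

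Less familiar ligands rose as well. Endothelin 1 (Edn1), a vessel-constricting peptide, had 363, 311 and 329 CPM at 4 h, against 1.45, 1.3 and 1.8 CPM at 0 h. The TNF-family ligands Tnfsf15 (6.76), Tnfsf10 (6.57) (TRAIL), Tnfsf4 (5.35) and Tnfsf9 (3.29) rose, as did Il27 (8.66) with its partner chain Ebi3 (2.56), Il15 (5.12), Il19 (4.87) and Csf1 (2.72), which encodes M-CSF itself. The alarmin gene Il33 was listed at the table's minimum, 0.0001 CPM, in all 0 h libraries and at 5.11, 8.66 and 8.47 CPM at 4 h. The stress cytokine Gdf15 (-1.32) fell, and the growth factors Tgfb1 and Igf1 were not called in 1 direction, with 183 against 312 CPM and 175 against 315 CPM at 4 h against 0 h. Of the 3 listed cytokines that the filter removed, Csf2, Il23a and Areg, each averaged under 1 CPM at both times.

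Chemokine genes also rose, 20 of 25 tested with 0 fallen and a median of 4.72 log2. Cxcl2, which draws neutrophils, had 480.1, 640.3 and 435 CPM at 4 h, against 1.45, 1.38 and 0.801 CPM at 0 h. Ccl22, which draws regulatory T cells, had 107, 152 and 179 CPM at 4 h, against 0.0804, 0.229 and 0.534 CPM at 0 h, and Cxcl9, which draws Th1 cells, had 284, 367 and 316 CPM at 4 h, against 0.482, 0.459 and 0.334 CPM at 0 h. Each of these 3 genes was near or under 1 CPM in every untreated library. As with the cytokines, a gene low at 0 h, such as Cxcl9, could enter the fit by its level after LPS, so the chemokine count tests nothing. The monocyte chemokines Ccl2 (4.90), Ccl7 (6.74) and Ccl12 (5.35) and the membrane chemokine Cx3cl1 (3.16) rose with them. Cxcl12, the ligand of CXCR4, stood at 4.9 against 12.7 CPM, and Pf4 at 71.5 against 102 CPM, with neither called in 1 direction.

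Genes for chemotactic receptors, not all of which bind chemokines, went both ways. Of 21 chemotactic receptor genes tested, 5 rose (23.8%, against 15.6% of all genes tested), 5 fell (23.8%, against 37.4%) and 11 did neither. Cxcr4, which holds cells in marrow, had 1.47, 1.52 and 0.743 CPM at 4 h, against 127, 156 and 166 CPM at 0 h, a difference of -6.08 ± 0.31 log2 (adjusted p = 3.63e-12). Cx3cr1, the fractalkine receptor, had 8.92, 12 and 9.28 CPM at 4 h, against 193, 235 and 207 CPM at 0 h, and Ccr2, the receptor for CCL2, had 2.86, 1.44 and 3.12 CPM at 4 h, against 15.1, 13.7 and 24 CPM at 0 h. No library of these 3 genes crossed into the other group's range. The sphingosine phosphate receptor gene S1pr1 (-3.11) and the oxysterol receptor gene Gpr183 (-2.78) also fell. The formyl peptide receptor genes Fpr1 (4.29) and Fpr2 (5.39), which sense bacterial peptides, and the atypical receptor gene Ccrl2 (5.69) rose.

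Among 33 cytokine receptor genes, 17 rose, 7 fell and 9 did neither. Il15ra, which presents IL-15, had 125, 109 and 124 CPM at 4 h, against 1.28, 1.76 and 1.2 CPM at 0 h. Tnfrsf1b, TNF receptor 2, had 3220.4, 3117 and 3234 CPM at 4 h, against 229, 206 and 246 CPM at 0 h, and Tnfrsf1a (0.66), TNF receptor 1, rose by less. In contrast the transcripts for both chains of the IL-6 receptor fell, Il6ra (-2.85) and Il6st (-1.82), and so did Tgfbr1 and Tgfbr2 (-1.80). Il6ra had 7.62, 8.81 and 7.28 CPM at 4 h, against 64.4, 62 and 62.7 CPM at 0 h, and Tgfbr1 had 35.9, 30.2 and 33.9 CPM at 4 h, against 299, 289 and 309 CPM at 0 h. The ligand-binding chain of the interferon gamma receptor, Ifngr1 (-2.08), fell while its signalling chain Ifngr2 (0.64) rose, as did Ifnar1 (0.37), a chain of the type I interferon receptor.

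**Figure D3:**
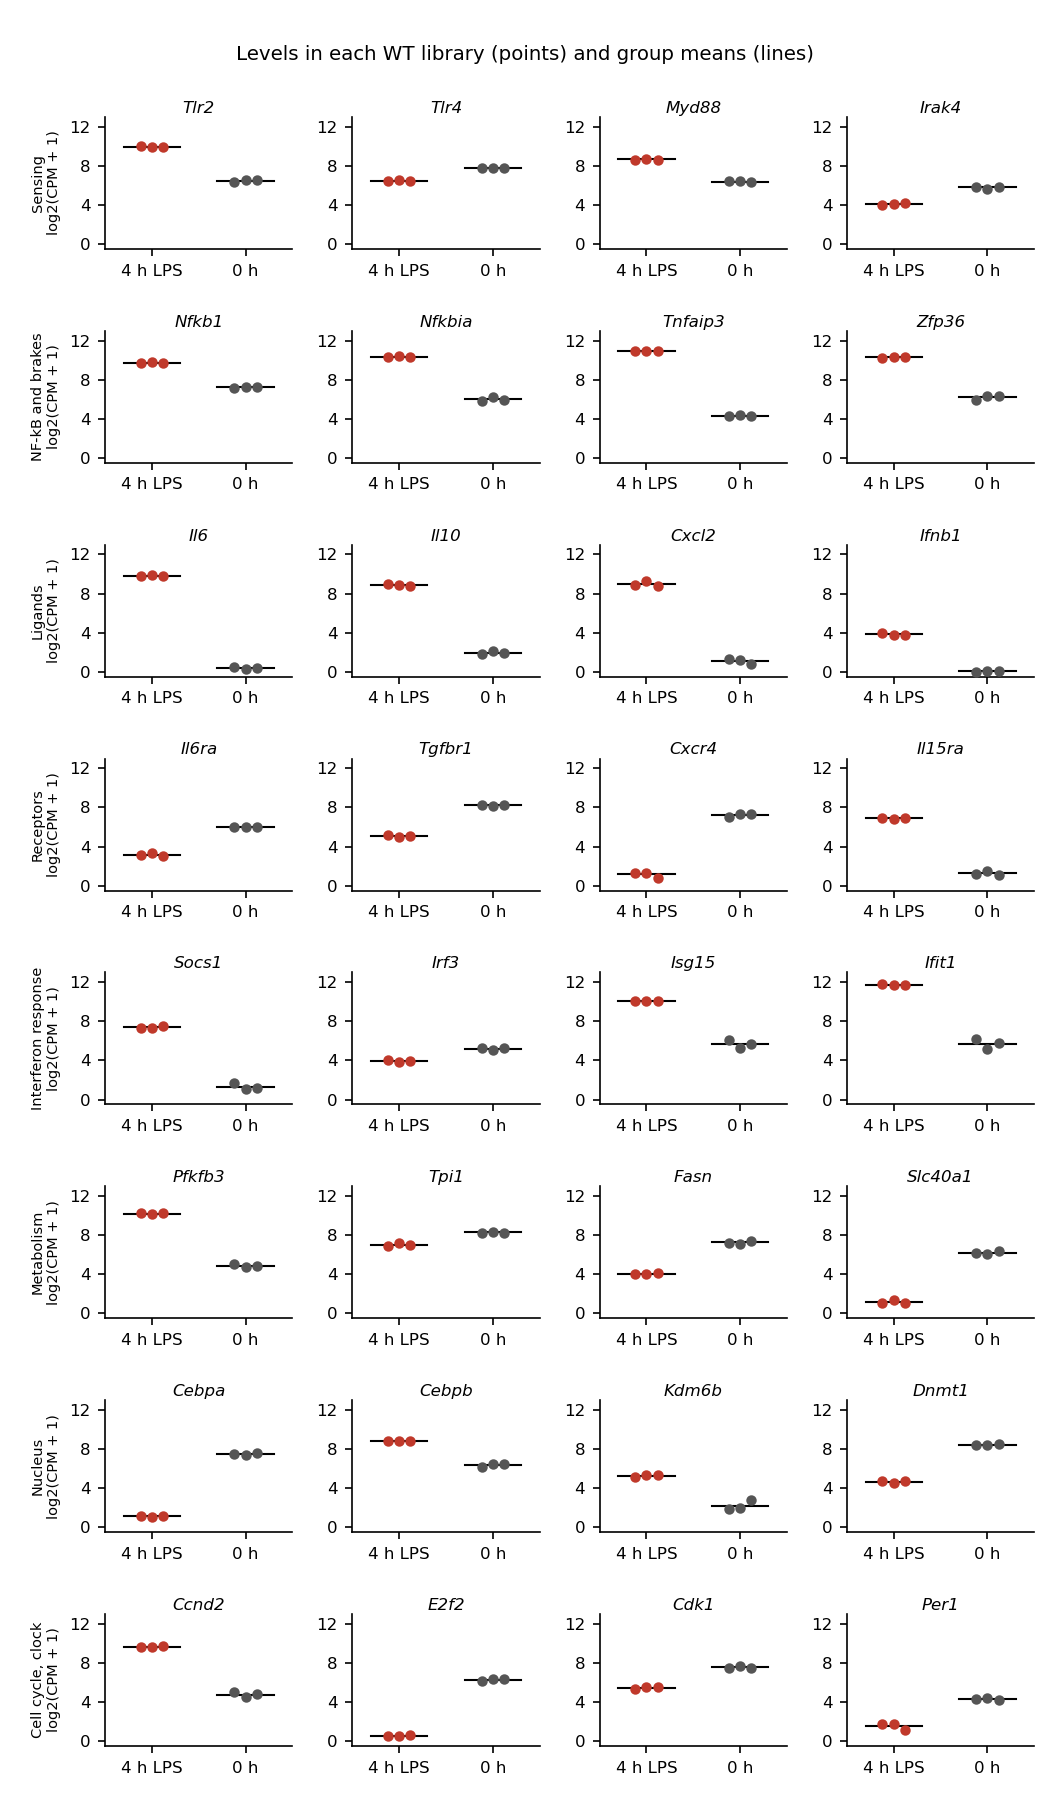
Levels in log2(CPM + 1) (y axis) of 32 genes, in 8 rows by role, in each WT library at 4 h LPS (left points in each panel) and 0 h (right points); lines mark group means. In every panel the 3 points of a group lie together and apart from the other group, with Tlr4, Irak4, Irf3, Il6ra, Tgfbr1, Cxcr4, Tpi1, Fasn, Slc40a1, Cebpa, Dnmt1, E2f2, Cdk1 and Per1 lower at 4 h.

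The interferon branch rose without exception among the genes listed. All 43 interferon-stimulated genes tested rose, around a median of 3.79 log2, and 42 did so by at least 1 log2 under both scalings. Isg15, a ubiquitin-like modifier, had 1045, 1113 and 1109 CPM at 4 h, against 66.2, 36.4 and 48.6 CPM at 0 h. Ifit1, which binds foreign RNA caps, had 3598, 3445 and 3337 CPM at 4 h, against 74.3, 35.2 and 53.4 CPM at 0 h. Replicate 1 was the highest of the 0 h libraries for both genes, and still far below every 4 h library. The guanylate-binding protein genes Gbp5 (8.09), Gbp2 (6.53) and Gbp3 (5.84), the RNA sensors Ifih1 (4.48) (MDA5) and Ddx58 (2.71) (RIG-I), and Mx1 (6.22) rose, and the smallest difference was that of Bst2 (0.34).

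The ISRE-like motif searched was GAAA, any 2 bases and GAAA, on either strand. It stood in 61.5% of 39 promoters of the interferon-stimulated genes that rose (33 of the 43 genes matched the table), against 3.43% of promoters of genes tested and 3.44% of all in the table. It was in 0 of the 20 promoters of the NF-kB genes above, and in 15.9% of the 283 promoters of all genes that rose by at least 3 log2. Cxcl10 held this motif, 213 bases before the start, beside a pair of kappaB-like matches at 159 and 104, and is shown for that reason; Cxcl10 had 6982, 7418 and 7105 CPM at 4 h, against 6.5, 7.34 and 6.81 CPM at 0 h. In Isg15 the matches overlap at 78, 72 and 66 bases before the start, and in Ifit1 they stand at 104 and 85, read on the other strand. The stretches are Cxcl10 (chr5:92348944-92349139, reverse strand), Isg15 (chr4:156200835-156200936, reverse strand) and Ifit1 (chr19:34640745-34640853, forward strand), with either motif in capitals.
Cxcl10: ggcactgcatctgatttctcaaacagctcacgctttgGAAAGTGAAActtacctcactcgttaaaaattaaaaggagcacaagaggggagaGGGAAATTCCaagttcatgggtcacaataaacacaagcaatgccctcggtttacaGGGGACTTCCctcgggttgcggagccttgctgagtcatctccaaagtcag
Isg15: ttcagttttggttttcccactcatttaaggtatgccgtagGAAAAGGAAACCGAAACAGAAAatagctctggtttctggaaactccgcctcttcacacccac
Ifit1: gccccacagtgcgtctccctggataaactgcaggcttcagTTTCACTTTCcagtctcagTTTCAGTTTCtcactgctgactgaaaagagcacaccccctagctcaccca

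Of 28 IRF, JAK, STAT and SOCS genes, 18 rose, 4 fell and 6 did neither. The cytokine-signal inhibitor Socs1 had 161, 158 and 183 CPM at 4 h, against 2.17, 1.07 and 1.2 CPM at 0 h, and Socs3 had 1834, 1858 and 1879 CPM at 4 h, against 4.82, 3.67 and 3.6 CPM at 0 h. Jak2 (4.31), Stat3 (2.37), Stat2 (2.25), Irf1 (2.54), Irf7 (2.24) and Irf8 (2.04) rose, and Stat6 (-1.16), the IL-4 signal carrier, fell. Within the SOCS family Socs1, Socs2, Socs3 and Socs7 rose, Socs5 (-2.08) and Socs6 (-1.26) fell, and Socs4 was not called in 1 direction (9 against 15 CPM at 4 h against 0 h).

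Among genes for small mediators, those of nitric oxide, arginine and itaconate mostly rose where called, and those of lipid mediators went both ways. Of 14 genes of nitric oxide, arginine and itaconate metabolism, 8 rose and 1 fell. Nos2, the inducible nitric oxide synthase, had 1876, 1896 and 1948 CPM at 4 h, against 0.562, 0.841 and 0.801 CPM at 0 h, its arginine importer Slc7a2 had 1317, 1152 and 1472 CPM at 4 h, against 34.4, 24.2 and 39 CPM at 0 h, and Gch1 (3.57) and Ass1 (2.31), which supply its cofactor and recycle its substrate, rose too. The last enzyme of cofactor synthesis, Spr (-1.72), fell. Of 18 lipid mediator genes, Ptgs2 (9.65), Ptges (6.75), Pla2g4a (1.11), the oxysterol maker Ch25h (5.85) and the receptor Ptger4 (0.86) rose. The constitutive cyclooxygenase Ptgs1 (-1.75), prostaglandin D synthase Hpgds (-1.86), the prostaglandin-degrading Hpgd (-2.68) and the leukotriene enzyme Lta4h (-1.35) fell. Ptges had 257, 257 and 261 CPM at 4 h, against 1.28, 1.68 and 1.27 CPM at 0 h, and Hpgd had 23, 27.4 and 29.3 CPM at 4 h, against 149, 204 and 177 CPM at 0 h.

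Redox genes went both ways. Of 25 tested, 9 rose and 7 fell. Sod2, the mitochondrial superoxide dismutase, had 825, 859 and 837 CPM at 4 h, against 54.8, 56.3 and 48.2 CPM at 0 h, and Cybb (1.57), the catalytic subunit of the phagocyte oxidase, rose. The glutathione synthesis enzyme genes Gclc (-3.21) and Gclm (-1.62), the peroxidases Gpx1 (-1.26) and Gpx4 (-1.22), catalase (Cat) and haem oxygenase 1 (Hmox1 (-2.11)) fell, while the cystine importer Slc7a11 (1.16) and the thioredoxin genes Txn1 (0.68) and Txnrd1 (0.68) rose.

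Among glucose genes, some transporters and control enzymes rose and some enzymes of the chain fell. Of 25 glycolysis and HIF-1 genes tested, 9 rose, 6 fell and 10 did neither. Pfkfb3, which makes the activator of phosphofructokinase, had 1252, 1118 and 1189 CPM at 4 h, against 32.6, 26.3 and 27.6 CPM at 0 h, a difference of 5.32 ± 0.13 log2 (adjusted p = 2.89e-16). The transporters Slc2a6 (4.88) and Slc2a1 (1.20), hexokinase 2 (Hk2 (1.88)), Pfkp (1.70) and Hif1a (1.00) rose. Triose phosphate isomerase, Tpi1, had 120.2, 143 and 126 CPM at 4 h, against 301, 331 and 306 CPM at 0 h, and Pgam1 (-1.17), Gpi1 (-1.09), Pdk1 (-1.23), Pfkfb4 (-2.67) and the mitophagy receptor Bnip3 (-1.24) fell. The other enzymes listed between phosphofructokinase and lactate, Pfkl, aldolase (Aldoa), Gapdh, Pgk1, enolase (Eno1), Pkm and Ldha, were not called in 1 direction. Of these Gapdh stood at 791 against 1281 CPM and Pkm at 1377 against 2341 CPM at 4 h against 0 h. Of 24 tricarboxylic acid cycle genes, 1 rose and 2 fell: Dld (0.21), Idh1 (-1.75) and Fh1 (-1.29).

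Lipid genes fell in about the share that all genes did. Of 23 cholesterol synthesis genes tested, 0 rose, 10 fell (43.5%, against 37.4% of all genes tested) and 13 did neither, around a median of -1.02 log2, against -0.81 for all genes. After median-ratio scaling those medians were -0.17 and -0.03. Stard4, a sterol carrier, had 6.93, 7.82 and 6.83 CPM at 4 h, against 75.6, 75.5 and 77.5 CPM at 0 h; Mvd (-2.82), Dhcr7 (-2.56), Sqle (-2.21) and Lss (-1.96) also fell. Among 27 lipid handling genes 2 rose and 9 fell (33.3%). Fatty acid synthase, Fasn, had 15.2, 15.3 and 16.7 CPM at 4 h, against 149.8, 140.3 and 168 CPM at 0 h, and Acaca, Scd2 (-2.92), Srebf1 (-1.40) and the nuclear receptor gene Pparg (-2.88) fell. The lectin-type scavenger receptor gene Olr1 rose, with 26.8, 21.5 and 22.1 CPM at 4 h, against 0.482, 0.0765 and 0.0001 CPM at 0 h, and the scavenger receptor gene Msr1 (1.22) rose too.

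Iron and other metal genes went both ways. Of 22 tested, 9 rose and 7 fell. The iron exporter ferroportin, Slc40a1, had 1.13, 1.52 and 1.11 CPM at 4 h, against 71.5, 67 and 79.5 CPM at 0 h, a difference of -5.03 ± 0.22 log2 (adjusted p = 4.32e-13). The siderophore-binding Lcn2 had 186, 189 and 188 CPM at 4 h, against 1.04, 0.917 and 1 CPM at 0 h. The importers Slc11a2 (2.16) and Slc39a14 (2.62), ceruloplasmin (Cp (4.75)) and the reductase Steap4 (4.32) rose. Ferritin light chain, Ftl1, had 2418, 2456 and 2521 CPM at 4 h, against 7866, 8384 and 8069 CPM at 0 h, whereas the heavy chain Fth1 had 7162, 6907 and 6711 CPM at 4 h, against 7545, 6869.7 and 6625 CPM at 0 h and was not called. No library of the light chain overlapped between groups. Metallothionein 2 (Mt2 (4.25)) rose.

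Proliferation genes fell nearly throughout. Of 41 cell cycle genes, 35 fell (85.4%, against 37.4% of all genes tested), 3 rose and 3 did neither, around a median of -2.49 log2. Of 32 DNA replication genes 28 fell (87.5%) and 0 rose (median -2.31). After median-ratio scaling those medians were -1.61 and -1.41, against -0.03 for all genes. E2f2, an activator of S phase genes, had 0.433, 0.456 and 0.52 CPM at 4 h, against 70.1, 81.9 and 80.5 CPM at 0 h. Ccne2, cyclin E2, had 1.35, 2.07 and 1.37 CPM at 4 h, against 85.9, 92.8 and 86.4 CPM at 0 h, and Cdk1, the mitotic kinase, had 39.2, 46.3 and 44.2 CPM at 4 h, against 173, 206 and 179 CPM at 0 h. The replication licensing gene Cdc6 (-4.65), the repair gene Brca1 (-4.27) and the nucleotide reductase gene Rrm2 (-3.46) fell, as did Mki67 (-2.49), which encodes the proliferation antigen Ki-67. The 3 that rose were Ccnd2, Cdkn1a and Cdk6. The difference of Cdk6 was 0.35, and its call was lost without WT 4 h replicate 2, WT 4 h replicate 3 or WT 0 h replicate 2 (adjusted p of 0.0818 to 0.0905). Ccnd2, cyclin D2, had 783, 766 and 844 CPM at 4 h, against 31, 21.8 and 26.4 CPM at 0 h, opposite to Ccnd1, which had 80, 87.6 and 70.4 CPM at 4 h, against 566, 510.3 and 389 CPM at 0 h, and Ccnd3 (-1.75).

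The cell cycle homology element core searched was TTTGAA on either strand. It was in 48.4% of 31 promoters of the cell cycle genes that fell (27 of 35 matched the table), in 7.69% of 26 promoters of the DNA replication genes that fell, and in 12.1% of promoters of all genes tested and 17.9% of all in the table. The promoters of genes that fell by at least 2 log2 after median-ratio scaling held it in 16.8%, and those of genes that rose by at least 3 log2 in 18.7%. Over the large changes the motif was therefore not more frequent among falls. The CCAAT box, CCAAT on either strand, was in 74.2% and 46.2% of the promoters of those cell cycle and DNA replication genes, in 38% of those of genes tested and in 37.4% of all in the table. Cdk1 (chr10:69352882-69353023, reverse strand) and Mki67 (chr7:135716432-135716535, reverse strand) are shown because each held a pair of TTTGAA matches, which begin 71 and 15 bases before the start in Cdk1 and 116 and 98 in Mki67.
Cdk1: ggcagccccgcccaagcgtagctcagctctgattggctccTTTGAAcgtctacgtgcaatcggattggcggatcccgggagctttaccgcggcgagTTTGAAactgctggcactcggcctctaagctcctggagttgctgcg
Mki67: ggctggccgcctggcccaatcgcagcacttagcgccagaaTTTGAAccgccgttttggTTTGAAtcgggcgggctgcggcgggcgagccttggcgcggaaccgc

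Clock genes fell or gave no call. Of 14 circadian genes tested, of 16 listed, 9 fell (64.3%, against 37.4% of all genes tested), 0 rose and 5 did neither. Their median was -1.50 log2, against -0.81 for all genes. After median-ratio scaling those medians were -0.85 and -0.03. Per1, a core clock repressor, had 2.25, 2.43 and 1.26 CPM at 4 h, against 18.4, 19.6 and 17.6 CPM at 0 h, and Tef, a clock output factor, had 2.77, 2.05 and 2.52 CPM at 4 h, against 35.5, 40.9 and 44.4 CPM at 0 h. Rora (-2.79), Dbp (-2.74) and Arntl (-1.49) fell as well. Of 18 p53 targets 4 rose and 8 fell: Sesn1, a sestrin that restrains mTORC1, had 1.65, 0.912 and 0.668 CPM at 4 h, against 177, 182 and 173 CPM at 0 h, while Cdkn1a and Mdm2 (1.46) rose.

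Genes for lineage and signal transcription factors went both ways, with a larger share risen than among all genes. Of 52 factor genes tested, 22 rose (42.3%, against 15.6% of all genes tested), 18 fell (34.6%, against 37.4%) and 12 did neither. Cebpa had 1.21, 1.14 and 1.19 CPM at 4 h, against 176, 163 and 191 CPM at 0 h, a difference of -6.35 ± 0.13 log2 (adjusted p = 4.27e-17), while its relatives Cebpb, with 439, 454 and 459 CPM at 4 h, against 68.2, 85 and 86.9 CPM at 0 h, and Cebpd (3.37) rose. The myocyte enhancer factors Mef2c (-2.55), Mef2d (-3.12) and Mef2a (-1.48), Fli1 (-3.49), Bhlhe41 (-3.91), Klf2 (-2.16) and Id3 (-2.12) fell. The lysosome and autophagy regulator Tfeb had 0.52, 0.836 and 0.891 CPM at 4 h, against 27.1, 31 and 31.8 CPM at 0 h, and its relatives Mitf (1.20) and Tfec (1.84) rose. Zeb1 (3.74), Hivep2 (3.64), Gfi1 (3.81), Prdm1 (2.96) and Ikzf1 (2.75) rose, and Spi1, the master factor PU.1, rose by 0.58. Elf4 itself was not called in 1 direction (68.7 against 105 CPM at 4 h against 0 h).

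Chromatin and RNA-decay genes held relatives that moved opposite ways. Of 35 chromatin modifier genes 10 rose and 13 fell. The H3K27 demethylase gene Kdm6b had 33.4, 40.7 and 41 CPM at 4 h, against 2.73, 2.9 and 5.74 CPM at 0 h, and its relative Kdm6a (-1.27) fell. The DNA dioxygenase gene Tet2 (2.52) rose and Tet3 (-2.34) fell, and Setdb2 (2.63) rose while Setdb1 (-2.50) fell. Maintenance DNA methyltransferase Dnmt1 had 25.8, 21.6 and 25.3 CPM at 4 h, against 345, 329.6 and 361 CPM at 0 h, and Kdm2b (-4.25), Ezh2 (-2.56) and the class II deacetylases Hdac4 (-2.61), Hdac5 (-3.48) and Hdac7 (-2.37) fell. Tristetraprolin, Zfp36, which destroys cytokine messages, had 1182, 1299 and 1269 CPM at 4 h, against 60.9, 80.1 and 81.8 CPM at 0 h. Its relatives Zfp36l1 (-3.08) and Zfp36l2 (-4.11) fell, and Zfp36l2 had 15, 17.2 and 20.3 CPM at 4 h, against 303, 308 and 341 CPM at 0 h. The ribonuclease genes Zc3h12a (4.15) (Regnase-1) and Zc3h12c (2.05) rose, and in all 5 of 20 genes of this list rose and 4 fell.

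Most genes for contact with T cells rose. Of 21 costimulation and checkpoint genes tested, 16 rose and 3 fell, around a median of 1.70 log2. Cd40 had 1489, 1558 and 1534 CPM at 4 h, against 8.19, 7.34 and 6.2 CPM at 0 h, and Cd274, the inhibitory ligand PD-L1, had 1163, 1069 and 1131 CPM at 4 h, against 14.1, 9.4 and 13.9 CPM at 0 h. Cd69 (9.18), Slamf7 (4.78), Cd86 (3.60) and Cd83 (3.49) rose. The checkpoint genes Vsir (-2.61), Havcr2 (-1.60) and Cd200r1 (-1.51) fell. Of 23 antigen presentation genes, 13 rose and 0 fell, all of them of the class I path: Nlrc5 (3.43), the class I activator, Tap1 (2.75), Psmb10 (2.04) and Tapbp (1.52) rose. The class II genes H2-Ab1 and H2-Aa stood at 58.8 against 53.6 CPM and 42.7 against 49.4 CPM at 4 h against 0 h, with no call.

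Surface and tissue-remodelling genes mostly rose. Of 37 adhesion, protease and coagulation genes, 21 rose and 1 fell. Icam1 had 2299, 2360.2 and 2308 CPM at 4 h, against 51.5, 64.9 and 61.8 CPM at 0 h. Collagenase 3 (Mmp13 (7.79)), Mmp14 (4.66), Adamts4 (6.05) and the urokinase receptor Plaur (2.91) rose. Urokinase itself, Plau, had 25.6, 31.2 and 31.5 CPM at 4 h, against 311, 294 and 272 CPM at 0 h and was the member that fell. Of 27 lectin, Fc and paired receptors 9 rose, among them Clec4e (5.62) (Mincle) and Fcgr2b (2.95), and 3 fell, all in the CD300 family: Cd300lb had 5.46, 6.76 and 5.57 CPM at 4 h, against 235, 251 and 256 CPM at 0 h, and Cd300a (-2.52) and Cd300lf (-1.55) fell. Of 21 complement and acute phase genes 9 rose and 0 fell, with C3 (3.40), Cfb (4.19), Saa3 (5.57) and the pentraxin Ptx3 (4.07) among those that rose.

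Of 25 cell death and survival genes 13 rose and 2 fell. Cflar, which blocks caspase 8, had 1455, 1246 and 1348 CPM at 4 h, against 98.7, 79.6 and 88.6 CPM at 0 h, and Birc3 (3.71) and Pim1 (4.64) rose. Bcl2 had 2.08, 2.73 and 3.64 CPM at 4 h, against 25.5, 23.4 and 21.3 CPM at 0 h, and the BH3-only gene Pmaip1 (-2.51) fell. Bcl2a1d (5.44), Bcl2a1a (5.39) and Bcl2a1b (3.34) rose, but they are near-identical copies whose reads may be shared among them. Of 22 inflammasome genes 11 rose and 7 fell. Nlrp3 (3.57), Casp4 (3.97) (caspase 11), Casp1 (1.76), Nod1 (3.78) and Nod2 (3.83) rose. The ATP-gated channel gene P2rx7 had 11.9, 7.37 and 10.3 CPM at 4 h, against 85.7, 77.4 and 87.7 CPM at 0 h, and Nlrp1b (-2.14), Nlrc4 (-1.33) and Txnip (-2.25) fell.

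Of 20 autophagy genes 11 fell (55%, against 37.4% of all genes tested) and 3 rose. The initiating kinases Ulk1 (-2.55) and Ulk2 (-2.57), Atg14 (-1.79) and Map1lc3b (-1.34) fell, and the cargo receptors Sqstm1 (1.36) and Optn (1.14) rose. Of 31 lysosome genes 3 fell and 1 rose, Ctsc (1.78), a protease-activating cathepsin, and 27 were not called in 1 direction. Ctsd and Ctsb stood at 5049 against 9931 CPM and 8035 against 11968 CPM at 4 h against 0 h. Acid lipase, Lipa (-1.65), and the sterol transporter Npc1 (-1.39) fell.

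Of 30 genes of G protein signalling, 15 rose, 12 fell and 3 did neither. The adenosine receptor Adora2a, which raises cyclic AMP, had 102, 91.8 and 103 CPM at 4 h, against 0.482, 0.306 and 0.667 CPM at 0 h, and Adora2b (4.45) rose. The fatty acid receptor Gpr84 (5.70), the niacin and ketone receptor Hcar2 (5.28) and the phosphodiesterase Pde4b (5.08) rose. The phosphodiesterase Pde3b (-2.70), Adcy9 (-3.30), Gpr65 (-2.69) and Rgs2 (-2.58) fell. In Notch and TGF-beta signalling 7 of 20 genes rose and 5 fell. The Notch ligand Dll1 had 17.9, 16.9 and 19.7 CPM at 4 h, against 0.0804, 0.153 and 0.0668 CPM at 0 h, and Jag1 (2.44), Notch1 (2.04) and Notch2 (2.26) rose, while Smad3 (-2.55), Smad6 (-3.36) and the repressor Ski (-2.60) fell.

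**Figure D4:**
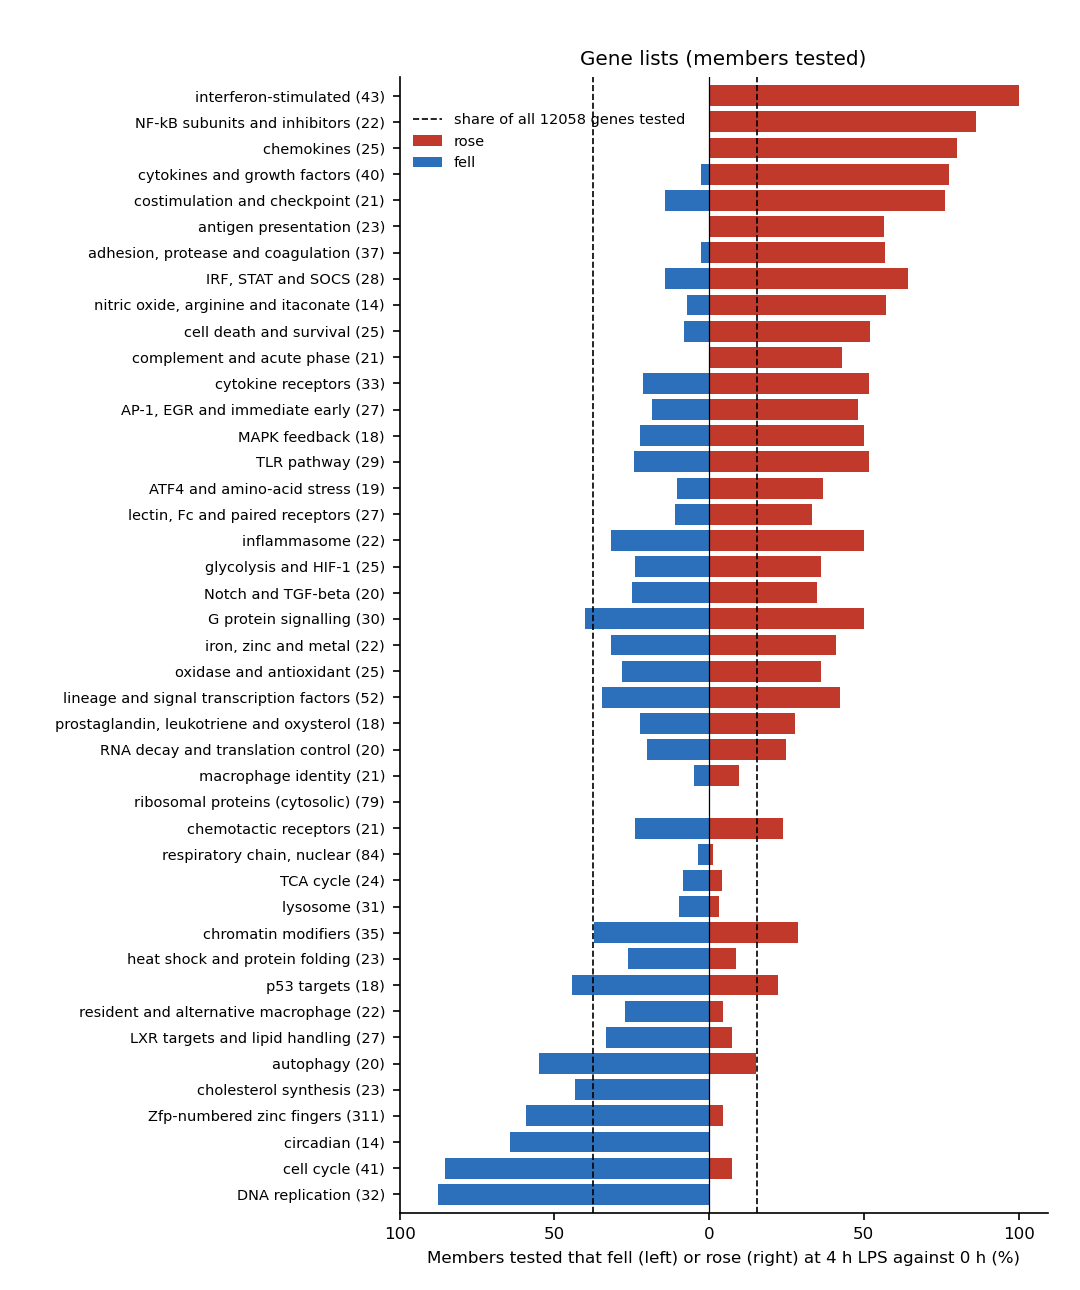
Share of the tested members of each gene list (number in brackets) that rose (right, red) or fell (left, blue) at 4 h LPS against 0 h (x axis, %); dashed lines give the shares of all genes tested, 15.6% and 37.4%. The interferon-stimulated list is at the top, with 43 of 43 risen, and the DNA replication list at the foot, with 28 of 32 fallen.

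Some counts lay near the shares of all genes tested, and nothing about those lists is read from them. The share fallen was 37.1% of chromatin modifier genes, 34.6% of transcription factor genes, 40% of G protein signalling genes and 44.4% of p53 targets, against 37.4% of all genes. Many other lists had a smaller share fallen than all genes. Among them were iron and metal genes (31.8%), inflammasome genes (31.8%), redox genes (28%) and resident and alternatively activated macrophage genes (27.3%). Heat shock and folding genes (26.1%) and Notch and TGF-beta genes (25%) were others. So were TLR pathway genes (24.1%), chemotactic receptors (23.8%), MAP kinase feedback genes (22.2%), lipid mediator genes (22.2%) and cytokine receptors (21.2%). No excess of falls is read from the counts of these lists. The share risen was 15% of autophagy genes, against 15.6% of all genes.

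A set of 54 genes rose with a mean of at least 5 CPM at 4 h and under 0.5 CPM in all 3 untreated libraries. They include listed members already given (Il6, Cxcl9, Dll1, Ifnb1) and others such as Nr4a3, with 42.3, 40.7 and 50.6 CPM at 4 h, against 0.0804, 0.306 and 0.334 CPM at 0 h, and Slamf1, with 18.6, 19.1 and 25.3 CPM at 4 h, against 0.0804, 0.0001 and 0.0668 CPM at 0 h. The histidine decarboxylase gene Hdc, which makes histamine, had 117, 146 and 145 CPM at 4 h, against 0.0001, 0.0765 and 0.134 CPM at 0 h. A gene had to differ to enter this set, so its size describes the libraries and tests nothing.

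Of 22 genes of resident and alternatively activated macrophages 1 rose, the phosphatidylserine receptor Timd4 (1.60), and 6 fell, among them the haemoglobin receptor Cd163 (-2.69) and Tmem119 (-1.70), a microglia marker. Cd163 had 1.56, 0.684 and 0.446 CPM at 4 h, against 11.5, 10.5 and 10.7 CPM at 0 h. Of 23 heat shock and folding genes 2 rose and 6 fell, with Hsph1 (-2.33) and Hspa8 (-1.32), a cytosolic chaperone pair, among those that fell. Of 19 targets of the stress factor ATF4 7 rose and 2 fell: Atf4 (0.49) itself, asparagine synthetase (Asns (1.21)) and the mitochondrial folate enzyme Mthfd2 (1.42) rose, and Cebpg (-1.89), a dimer partner of ATF4, fell.

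Some large families took their direction from the scaling. None of 79 cytosolic ribosomal protein genes was called in 1 direction under both scalings: 76 were lower on the deposited CPM, with a median of -0.61 log2, and 66 higher after median-ratio scaling, with a median of 0.30. The summed CPM of all 81 listed, tested or not, was 19907, 21467 and 20689 at 4 h, against 30867, 33273 and 30300 at 0 h. The 84 nuclear genes of the respiratory chain had medians of -0.66 and 0.21 on the same scales, with 1 risen and 3 fallen. In contrast, of 311 genes named Zfp with a number, most of them zinc finger factors, 184 fell (59.2%, against 37.4% of all genes tested) and 14 rose. Their medians were -1.19 on the deposited CPM and -0.51 after median-ratio scaling, against -0.81 and -0.03 for all genes.

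The 16 h WT libraries (3, the same LPS dose) show how the 4 h levels compare with a later time; they are set against the same 4 h libraries, so the comparisons are not independent. Against 4 h, 3981 genes were higher at 16 h under both scalings (33%, and 51% on the deposited CPM) and 2669 lower (22.1%). Tnfaip3 had 214, 201 and 220.2 CPM at 16 h, against 1955, 1966 and 1989.6 CPM at 4 h, Il6 had 24.1, 21.6 and 19 CPM at 16 h, against 871, 946 and 900.1 CPM at 4 h and Dusp1 had 268, 227 and 282 CPM at 16 h, against 996, 1014 and 1079 CPM at 4 h, each lower at 16 h by the same rule (16 h minus 4 h: -3.21, -5.33 and -1.99 log2). Cebpa had 18.2, 17.5 and 22.3 CPM at 16 h, against 1.21, 1.14 and 1.19 CPM at 4 h and Tfeb had 21.9, 17.2 and 21 CPM at 16 h, against 0.52, 0.836 and 0.891 CPM at 4 h, each higher at 16 h (3.21 and 3.59). Saa3 was higher at 16 h (3.65), Mki67 lower (-2.38), and Il1rn, the IL-1 receptor antagonist, had 3924, 3408 and 3659 CPM at 16 h, against 2956, 3016 and 3265 CPM at 4 h, with no call (0.25). Fasn, with 16, 16.7 and 20 CPM at 16 h, against 15.2, 15.3 and 16.7 CPM at 4 h, was not called either (0.15).

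**Figure D5:**
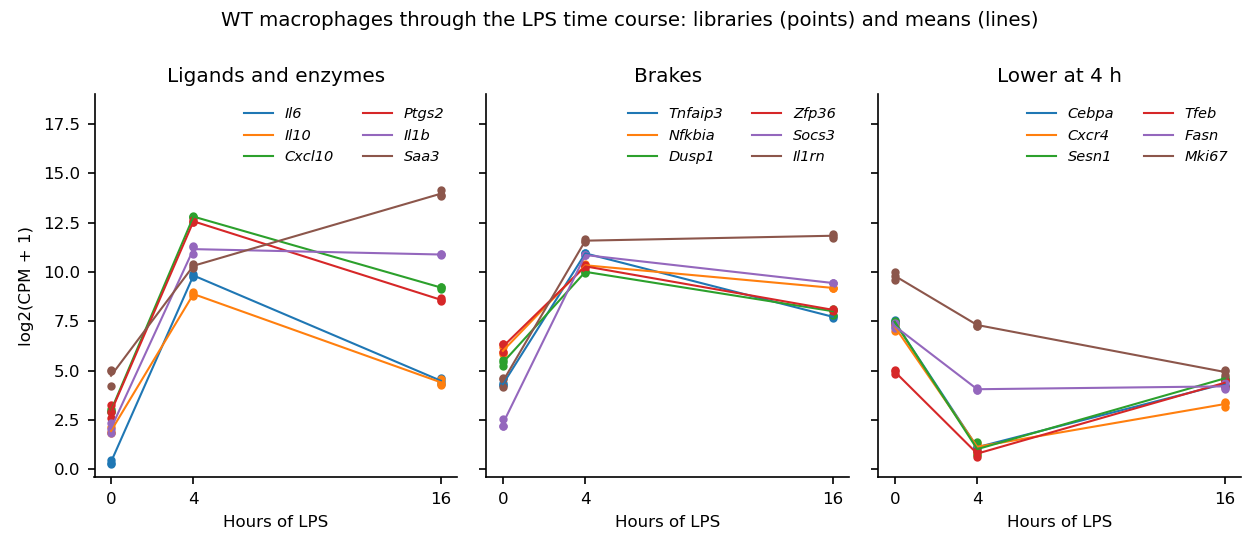
Levels in log2(CPM + 1) (y axis) in WT macrophages at 0, 4 and 16 h of LPS (x axis), with a point for each of 3 libraries per time and lines through the means. Il6, Il10 and Tnfaip3 are highest at 4 h, Saa3 at 16 h, and Cebpa, Sesn1 and Tfeb are lowest at 4 h.

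In Elf4 knockout (KO) macrophages at the same times, 3 libraries each, the response was set against that of WT by the difference of the differences, which uses the same WT libraries as above. On the deposited CPM 0 genes had a more positive response in KO and 1 a more negative one (0.00829% of those tested), by limma. At an unadjusted p under 0.05 the counts were 529 and 345. With replicate number within genotype as a block the called counts were 26 and 17. Elf4 itself averaged 17.2 CPM at 4 h and 22 CPM at 0 h in KO cells, and 68.7 ± 5.07 CPM at 4 h and 105 ± 7.96 CPM at 0 h in WT cells (SD, n = 3). The gene called was Mtus1, which encodes a microtubule-associated protein. It averaged 50.6 CPM at 4 h and 90.5 CPM at 0 h in KO cells, and had 77.6, 89 and 86.2 CPM at 4 h, against 78.1, 62 and 58.8 CPM at 0 h in WT cells. The response in KO minus that in WT was -1.17 ± 0.16 log2 (adjusted p = 0.0153, limma). Leaving out WT 4 h replicate 3, WT 0 h replicate 2 or WT 0 h replicate 3 left it uncalled.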

How the data were processed

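RNA sequencing of bone marrow-derived macrophages was read from a table of CPM for 14897 rows and 18 libraries (WT and Elf4 KO at 0, 4 and 16 h, 3 each), deposited by the authors with gene symbols. One repeated row was dropped, leaving 14896 genes. The submitters' processing notes list mm10, BWA, Bowtie2, Partek 10.0.21.0411, MACS2 and DESeq2 without roles, and the step that made the CPM is not given in the sources used here. Values at the table's minimum, 0.0001, were taken as no reads. Whole reads could not be recovered from the CPM steps within a tolerance of 0.01, so no count test was run, and the reads per library printed are estimates.

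Groups followed the labels. A gene entered the fit if 3 or more libraries reached 1 CPM (12058 genes). In any list, a gene low at 0 h could thus enter by its LPS libraries. Differences of log2(CPM + 1) were fitted with limma 3.58.1 in R 4.3.3 to all 18 libraries, with a mean for each genotype and time (12 residual degrees of freedom), empirical Bayes moderation with a trend and Benjamini-Hochberg adjustment at 0.05. The fit was repeated after median-ratio scaling over 11786 genes, and a gene is said to rise or fall only where both fits called it in that direction. All p-values printed are from the deposited CPM. Named genes are list members, or the 15 largest changes each way after median-ratio scaling with at least 5 CPM at either time and no overlap between groups; predicted gene models are not named. The groups, lists and their members were chosen with earlier results of these data known. A list is described by its counts and median, and a list of mitochondrially encoded genes found no member in the table. Of 1654 places in the lists, 1545 were tested, 86 held a gene too low to test and 23 a gene not analysed here. The fit was tested on simulated data, with 11360 of 11560 genes left unchanged. It recovered 92.5% of 67 genes changed 1.5-fold and called 20 of the unchanged genes. The simulation held no shift of most genes and used 1 scaling, so it does not speak to the choice of scaling. Promoters were matched by symbol in the RefSeq table with Python 3.11.15.

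Replicate numbers come from the labels. Same-numbered 4 h and 0 h libraries deviated together over the genes (correlations of 0.22, 0.17 and 0.25, against -0.18 to -0.049 for other pairs), although the header gives each library its own mouse number, and a fit with replicate number as a block was an alternative. Others were the scaling, the pseudocount, the filter, the 6 libraries alone and leaving out each replicate.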

Additional observations from a re-analysis of the deposited data

Results flagged for a closer look

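The response of Mtus1 at 4 h differed between genotypes. It averaged 50.6 CPM at 4 h and 90.5 CPM at 0 h in KO cells, and 84.3 against 66.3 CPM at 4 h against 0 h in WT cells, a difference of -1.17 log2 between the responses (KO minus WT, 3 libraries a group, limma, adjusted p = 0.0153). The call was absent without WT 4 h replicate 3, WT 0 h replicate 2 or WT 0 h replicate 3.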

How the results depend on the processing

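On the deposited CPM 1876 genes were higher and 8593 lower at 4 h than at 0 h; median-ratio scaling gave 4248 and 4504. The median difference of -0.811 log2 was -0.0301 after median-ratio scaling, -0.93 and -0.906 with pseudocounts of 0.1 and 0.25, -0.585 without a filter and -0.856 with a filter of 5 CPM. Leaving out 1 library at a time gave 1805 to 1837 genes higher, 8372 to 8471 lower, 1805 to 1837 risen and 4262 to 4332 fallen under both scalings, and medians of -0.828 to -0.797. Of 349 named genes, 349 kept their direction and their side of the threshold with either pseudocount and with the block in all 18 libraries, 348 without a filter (all but Pgk1, adjusted p = 0.0603), 348 with the 6 WT libraries alone, 347 with the block in those 6, and 325 with median-ratio scaling. With the 6 WT libraries alone Adgre1, not called in the 18 library fit, was called lower (-0.174, adjusted p = 0.0368), and with the replicate block in those 6 so were Adgre1 (adjusted p = 0.00072) and H2-Aa (-0.223, adjusted p = 0.00854). With median-ratio scaling, 19 that were lower on the deposited CPM, none of them said to have fallen, had positive differences, since it raises 4 h levels relative to 0 h: Adgre1 (0.737), Aldoa (0.256), Ctsb (0.337), Cyld (0.648), Elf4 (0.291), Eno1 (0.0196), Fth1 (0.895), Gapdh (0.214), H2-Aa (0.668), Igf1 (0.0579), Ikbkg (0.313), Ldha (0.183), Lyz2 (0.0885), Pf4 (0.398), Pfkl (0.0284), Pgk1 (0.626), Pkm (0.146), Socs4 (0.164) and Tgfb1 (0.14). Leaving out a library gave differences of either sign for 2 uncalled genes, Fth1 (-0.0562 to 0.0376) and H2-Ab1 (-0.0526 to 0.271). For 16 h against 4 h, median-ratio scaling gave 3981 genes higher and 4409 lower, against 6153 and 2669 on the deposited CPM, and leaving out a library gave 5862 to 6022 and 2462 to 2543. For the response in KO minus that in WT, median-ratio scaling gave 1 gene higher, and leaving out a library gave 0 to 1 higher (1 without WT 4 h replicate 2) and 0 to 1 lower. The paired fit, with replicate number as a block, gave 26 higher and 17 lower there, and 1942 higher and 8847 lower at 4 h; it moved no other count by over 1.5 times. The count tests with edgeR and DESeq2 were not run, because whole reads were not recovered. A change in total RNA per cell cannot be read from either scaling, and with 3 libraries a group the precision rests on the spread between them.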
